A study of Apis mellifera with 12 samples.

Results

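The miRNAs miR-263, miR-263b and miR-31a of the honey bee (Apis mellifera) are 3 of the 168 miRNA reporters printed on the arrays of this study, and they were chosen by name because their relatives are known from insect epithelia and sensory organs. All 3 were found in the scanner files and in the deposited value table. The tissue was fat body, taken as the abdominal carcass that it lines, from worker bees aged 15 days. Each bee had been injected as a newly emerged adult with 2 µL of double-stranded RNA (dsRNA) at 10 µg/µL. In 6 pools the dsRNA was directed against vitellogenin (dsRNA-Vg), the egg-yolk precursor that the fat body makes, and in the other 6 against green fluorescent protein (dsRNA-GFP), a sequence bees lack, as the sham control. Both groups were therefore injected, and no uninjected bees were included. Each pool held small RNA from 5 bees at 400 ng per bee and was hybridised to 1 single-colour array, so differences between bees within a pool were not measured. The labels call the bees of both groups foragers and give no strain or colony. The arrays carry no vitellogenin reporter, so the knockdown was not checked here.

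MicroRNAs are short RNAs that guide repression of messenger RNAs, mainly through the seed, the bases from position 2 to position 8. In Drosophila, miR-263a and miR-263b protect the cells of sensory bristles from programmed cell death by repressing the death gene hid. They are counted as kin of the vertebrate miR-183, miR-96 and miR-182 family of sensory epithelia. Fly miR-31a is transcribed in embryonic gut epithelium. The carcass that carries the fat body also carries epidermis, muscle and nerve, so its small RNA is not from fat cells alone.

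The mature sequences are shown because the similarity of miR-263 and miR-263b bears on every comparison between them. They were read 5′ to 3′ from the target sequences in the scanner files, with the seed in capitals.
ame-miR-263: gUAAAUGGcacuggaagaauucac
ame-miR-263b: cUUGGCACuggaagaauucac
ame-miR-31a: gGCAAGAUgucggcauagcuga
The 3 seeds differed, and 0 other reporters on the array held any of them. Both miR-263 and miR-263b end in the same run of 19 bases, given here in capitals, which begins within the seed of each at a different position.
ame-miR-263, shared run: guaaaUGGCACUGGAAGAAUUCAC
ame-miR-263b, shared run: cuUGGCACUGGAAGAAUUCAC
The run covers positions 6 to 24 of miR-263, which has 24 bases, and positions 3 to 21 of miR-263b, which has 21. Only the 5 bases before it in miR-263 and the 2 bases before it in miR-263b tell the reporters apart. Of the 14028 pairs of reporters, 1 shared a run of at least 19 bases, and it was this pair, against a median run of 4 bases. The longest run of miR-31a with either was 4 bases. How much of each of the similar reporters' signal came from the other miRNA was not tested.

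The miRNA names matched 3 of 3 gene records of RefSeq (assembly Amel_HAv3.1), under Mir263a (synonym Mir263), Mir263b and Mir31a. The genes lie on 3 different chromosomes. Mir263b lies within the protein-coding gene LOC100578609, and its nearest miRNA gene is Mir3724, with 0 genes between them. Mir31a lies within the long non-coding RNA gene LOC102656787, and Mir263a overlaps no annotated gene. The similar pair is therefore not a cluster of neighbouring genes in this annotation. The miRNA of the gene nearest to Mir263b, miR-3724, was detected on 5 of 12 arrays and was not tested.

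Values are log2 intensities after background correction and quantile normalization, each the mean of 18 spots, and they are compared between pools and not between miRNAs. A miRNA counted as detected on an array where at least 50% of its spots were above 95% of the empty spots on it. All 3 were detected on 12 of 12 arrays, as were 35 of the 168 reporters. They also passed on 12 of 12 arrays when the dimmer miRNA reporters replaced the empty spots. Before correction, miR-31a lay closest to background, at 1.23 to 1.77 times the median empty spot. The signal of miR-263 lay at 1.64 to 3.53 times that median and that of miR-263b at 1.62 to 4.33 times. Empty spots themselves ranged from a median of 150.2 to 491.3 between arrays, and the number of detected reporters from 37 to 168. The number of arrays and this low signal limit the precision.

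Of the 3 miRNAs, miR-263b differed most between treatments, at 1.38 times the control level after dsRNA-Vg, but the difference did not pass the test. In the dsRNA-GFP pools, in the order of pools 1 to 6, its log2 intensity was 8.44, 8.08, 8.61, 8.70, 9.15 and 8.78. In the dsRNA-Vg pools it was 8.92, 9.24, 9.23, 8.90, 9.11 and 9.15. The groups overlapped through control pool 5: 5 control pools lay below every dsRNA-Vg pool, and 33 of the 36 pairs of pools had the dsRNA-Vg pool higher. The means were 8.62 ± 0.35 and 9.09 ± 0.15 (SD, n = 6 each). The log2 fold change was 0.47 (SE 0.15, 95% interval 0.14 to 0.79), with an adjusted p of 0.155 in limma after Benjamini-Hochberg adjustment over 127 tested reporters. Without control pool 5, the highest control, it was 0.57 and passed, with an adjusted p of 0.0318 in limma. That pool was singled out after its value was seen. Without any other single pool it did not pass, with adjusted p-values in limma of up to 0.307.

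The background for these tests was low after adjustment and higher before it. Over all tested reporters, 1.57% were called at an adjusted p under 0.05 (2 of 127), and 0 of the 3 miRNAs described here were among them. At an unadjusted p under 0.05 the share was 14.2%, and miR-263b, with an unadjusted p of 0.00855 in the limma fit, ranked 7 of 127. Groups that did not overlap were found for 2.36% of reporters, and for 0 of these 3. The median log2 fold change of all tested reporters was -0.01.

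For miR-263 the groups overlapped more. In the dsRNA-GFP pools 1 to 6 its log2 intensity was 8.52, 8.39, 8.48, 8.70, 9.13 and 8.95. In the dsRNA-Vg pools it was 8.73, 8.96, 8.89, 8.79, 9.08 and 8.86. The controls fell both below and above the dsRNA-Vg pools, with 4 below all of them and 1 above, and 26 of 36 pairs had the dsRNA-Vg pool higher. The means were 8.70 ± 0.29 and 8.89 ± 0.12 (SD, n = 6 each). The log2 fold change of 0.19 (SE 0.12, 95% interval -0.08 to 0.46) had an adjusted p of 0.478 in limma. Its sign turned in the deposited table, at -0.03, and with cyclic loess normalization, at -0.01.

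For miR-31a the 2 group means were nearly equal and the interval wide. Its log2 intensity was 7.69, 7.65, 8.46, 8.07, 7.79 and 7.34 in the dsRNA-GFP pools 1 to 6. It was 8.10, 7.82, 7.70, 7.60, 7.64 and 8.30 in the dsRNA-Vg pools. Both the highest pool, control pool 3, and the lowest, control pool 6, were controls, and 19 of 36 pairs had the dsRNA-Vg pool higher. The means were 7.84 ± 0.39 and 7.86 ± 0.28 (SD, n = 6 each). The log2 fold change was 0.02 (SE 0.18, 95% interval -0.38 to 0.42), with an adjusted p of 0.969 in limma, so a fold from 0.770 to 1.34 lies within the interval. Its sign was negative with cyclic loess (-0.10), with scaling to the median (-0.04), with no normalization between arrays (-0.29) and in the deposited table (-0.09), and 0 of these passed the test in limma.

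**Figure D1:**
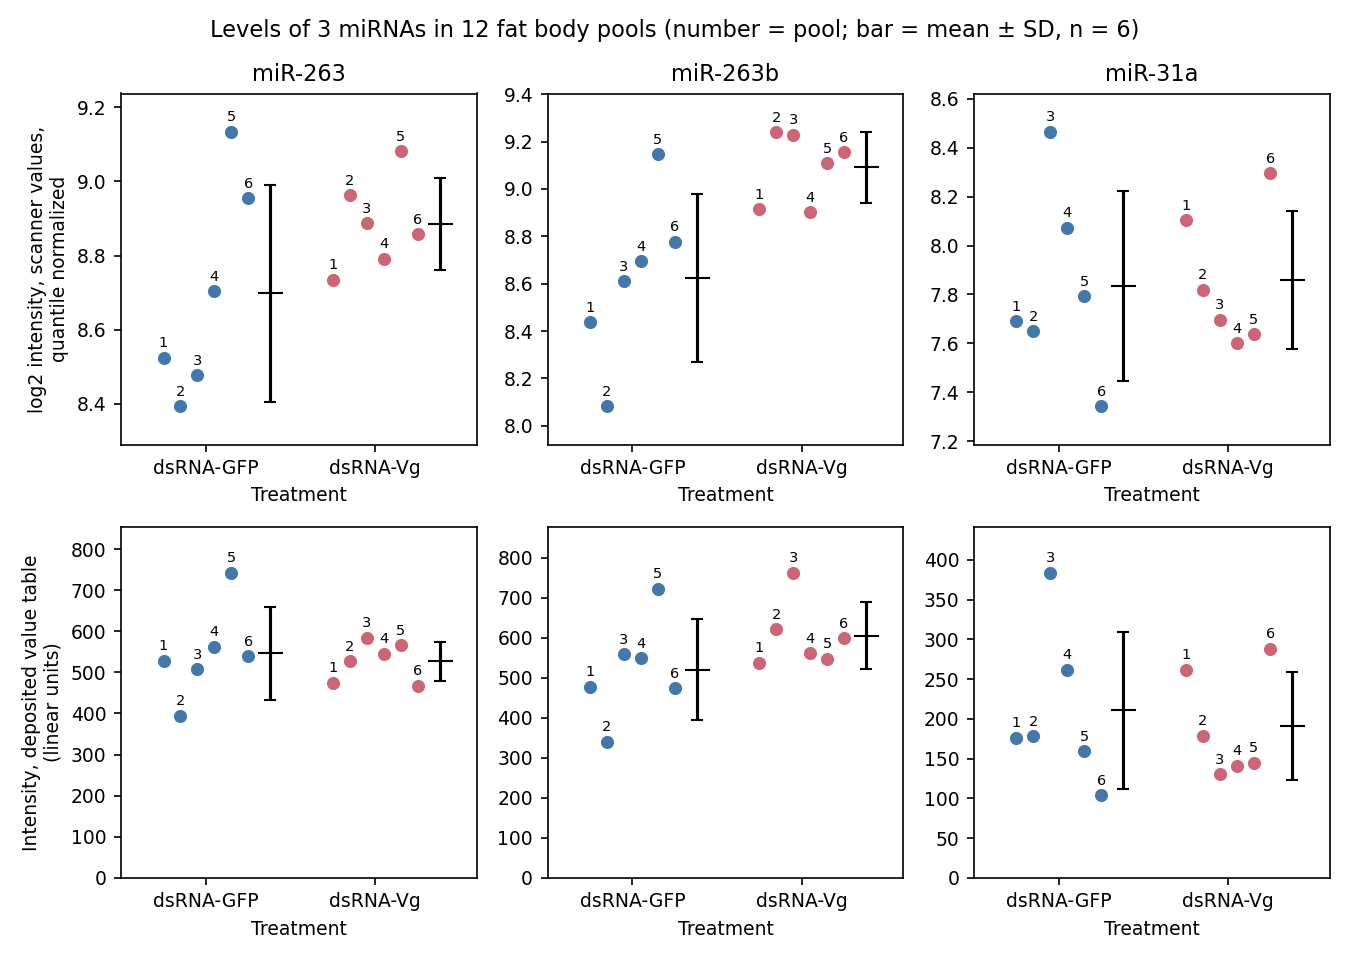
Level of each miRNA by treatment (columns of panels: miR-263, miR-263b, miR-31a), as normalized log2 intensity in the upper row and deposited intensity in the lower row. Each numbered point is 1 pool and the bars are means ± SD (n = 6); for miR-263b, 5 of the 6 control pools lie below every dsRNA-Vg pool in the upper row, while for miR-31a the groups cover much the same range.

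The deposited value table gave the same sign for miR-263b with a smaller difference. Its deposited intensities were 478, 340, 559, 549, 723 and 474 in the dsRNA-GFP pools 1 to 6. They were 538, 622, 763, 561, 548 and 599 in the dsRNA-Vg pools, and the highest dsRNA-Vg value stood only slightly above the highest control. The means were 520.5 ± 126.4 and 605.2 ± 83.6 (SD, n = 6 each). On log2(value + 1) the fold change was 0.24 (SE 0.18), with an adjusted p of 0.562 in limma over 168 reporters, of which 1.19% were called. The median of all reporters was lower here, at -0.11, and relative to it miR-263b stood at 0.35. The deposited means of miR-263 were 546.2 ± 112.9 and 527.5 ± 47.5, and those of miR-31a 210.5 ± 99.0 and 190.8 ± 67.7 (SD, n = 6 each). With no normalization between arrays the median moved to -0.22, and the 3 miRNAs stood relative to it at 0.25 for miR-263, 0.51 for miR-263b and -0.07 for miR-31a. Both medians rest mostly on dim reporters, since only 35 of the 168 were detected on every array. The values relative to them were not tested.

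**Figure D2:**
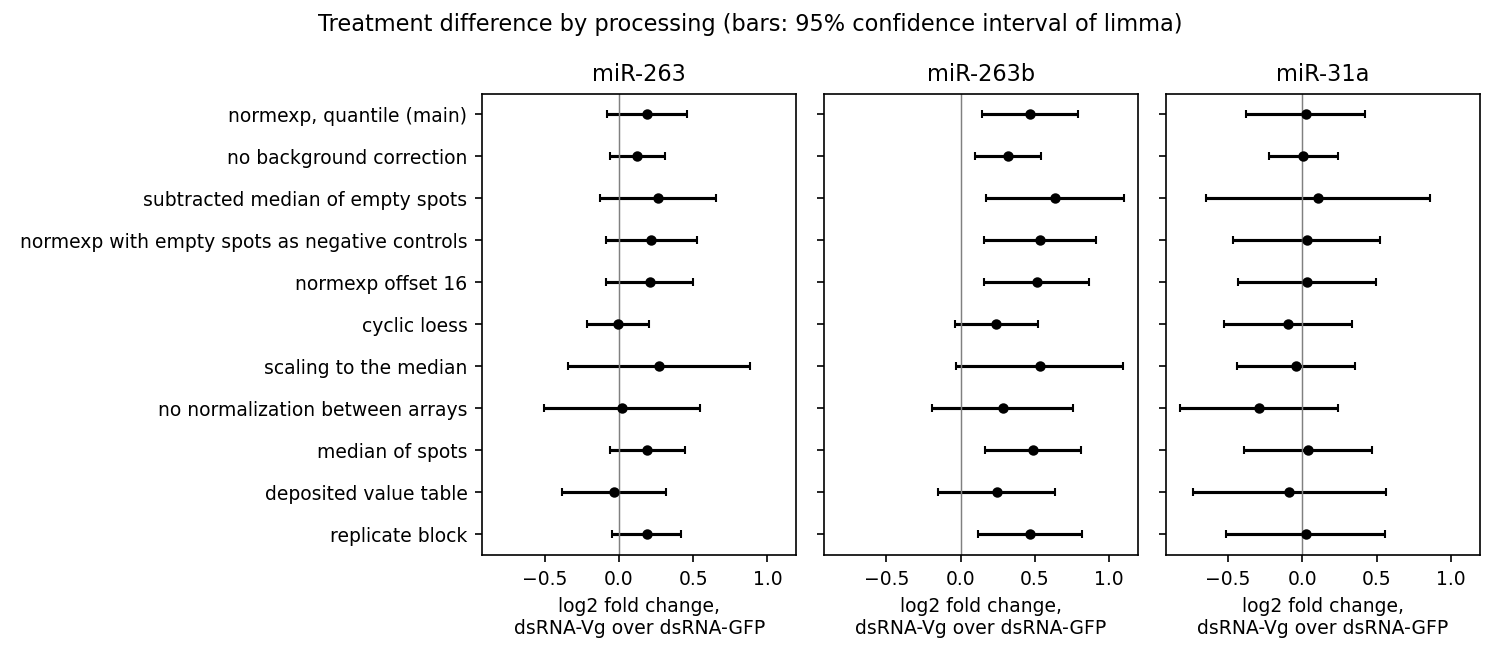
Log2 fold change, dsRNA-Vg over dsRNA-GFP, of each miRNA under each processing of the arrays (rows), with bars of 95% confidence intervals from limma. The estimates of miR-263b lie above 0 in every row drawn, with intervals that include 0 for cyclic loess, scaling to the median, no normalization and the deposited table, while those of miR-31a lie on both sides of 0.

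A control reporter differed between the groups, and array background varied within both. The control reporter PUC2PM, printed on each array, had a log2 intensity before normalization of 9.77 ± 0.62 on the dsRNA-GFP arrays and 11.18 ± 0.74 on the dsRNA-Vg arrays (SD, n = 6 each). The difference of 1.41 had an exact two-sided permutation p of 0.00866, with 4 of 6 dsRNA-Vg arrays above every control array. With PUC2PM as a covariate the log2 fold change of miR-263b was 0.48 (SE 0.23), with an adjusted p of 0.486 in limma. That of miR-31a moved from 0.02 to 0.35 (SE 0.26, adjusted p 0.76 in limma) and that of miR-263 from 0.19 to 0.12 (SE 0.19). On 6 arrays, 4 of them dsRNA-GFP and 2 dsRNA-Vg, the dimmer miRNA reporters lay above the same empty-spot limit, and on the other 6, 2 dsRNA-GFP and 4 dsRNA-Vg, they did not. Within the first class the log2 fold change of miR-263b was 0.69 (SE 0.20), and within the second it was 0.13 (SE 0.17). For miR-263 these values were 0.40 and -0.08, and for miR-31a -0.12 and 0.02. With the class as a block, miR-263b stood at 0.41, with an adjusted p of 0.337 in limma. These checks were chosen after the data had been seen. Across the 12 arrays, normalized miR-263b had an r of -0.587 with the median empty spot (permutation p 0.0436, adjusted 0.263 over 9 relations; rho -0.517, permutation p 0.0882). The r was -0.397 without the 2 arrays farthest from the median, -0.554 within the dsRNA-GFP arrays and -0.386 within the dsRNA-Vg arrays. Before normalization between arrays miR-263b had an r of 0.634 with PUC2PM (permutation p 0.023, adjusted 0.104; rho 0.664, permutation p 0.0223), 0.646 without the 2 farthest arrays, 0.797 within dsRNA-GFP and 0.241 within dsRNA-Vg. Neither passed after adjustment.

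The similar pair was then compared within each array, which leaves out any normalization between arrays. Relative to miR-263, miR-263b was higher after dsRNA-Vg than after dsRNA-GFP. The log2 ratio of miR-263b to miR-263, before normalization between arrays, was -0.05, -0.18, 0.07, -0.01, 0.03 and -0.14 in the dsRNA-GFP pools 1 to 6. It was 0.15, 0.34, 0.32, 0.09, 0.01 and 0.36 in the dsRNA-Vg pools. Of these, 5 of 6 lay above every control pool, and pool 5 lay among the controls. The means were -0.05 ± 0.10 and 0.21 ± 0.15 (SD, n = 6 each). The difference of 0.26 (SE 0.07), a factor of 1.20, had an exact two-sided permutation p of 0.00649, and 0.0195 after adjustment over the 3 ratios among the 3 miRNAs. Without control pool 2 or without control pool 6 the difference was 0.23 or 0.24, and the adjusted exact p was 0.0519 in both cases.

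Set against other reporters, the ratio was less unusual. The log2 ratio to miR-263 was computed for the 34 other reporters detected on every array, an addition made after seeing the data. Of these, 11.8% had an exact permutation p under 0.05 (4 of 34). In this larger family the adjusted exact p of miR-263b was 0.0736, which did not pass. Larger differences in the ratio to miR-263 were found for let-7, at -0.56, and miR-3739, at 2.40, each with an exact permutation p of 0.00216, the smallest that 6 against 6 pools allow, and an adjusted p of 0.0368. A ratio shows that the 2 signals changed unequally and not which of them changed.

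The ratio was similar in other views of the same arrays. In the deposited table its means were -0.08 ± 0.13 in the controls and 0.19 ± 0.17 after dsRNA-Vg (SD, n = 6 each), and the difference of 0.27 had an exact permutation p of 0.0152, adjusted 0.0455 over the 3 ratios. From spots in the upper part of the array alone the difference was 0.27, and from those in the lower part 0.25, a split made after the layout had been seen. It was 0.18 with no background correction and 0.33 with the median empty spot subtracted. Within the 2 classes of array background it was 0.24 and 0.23, where the smallest exact p possible is 0.0667. The ratios with miR-31a did not pass. The ratio of miR-31a to miR-263 differed by -0.31 (SE 0.32, exact permutation p 0.342), and that of miR-263b to miR-31a by 0.57 (SE 0.29, exact permutation p 0.0736, adjusted 0.11).

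**Figure D3:**
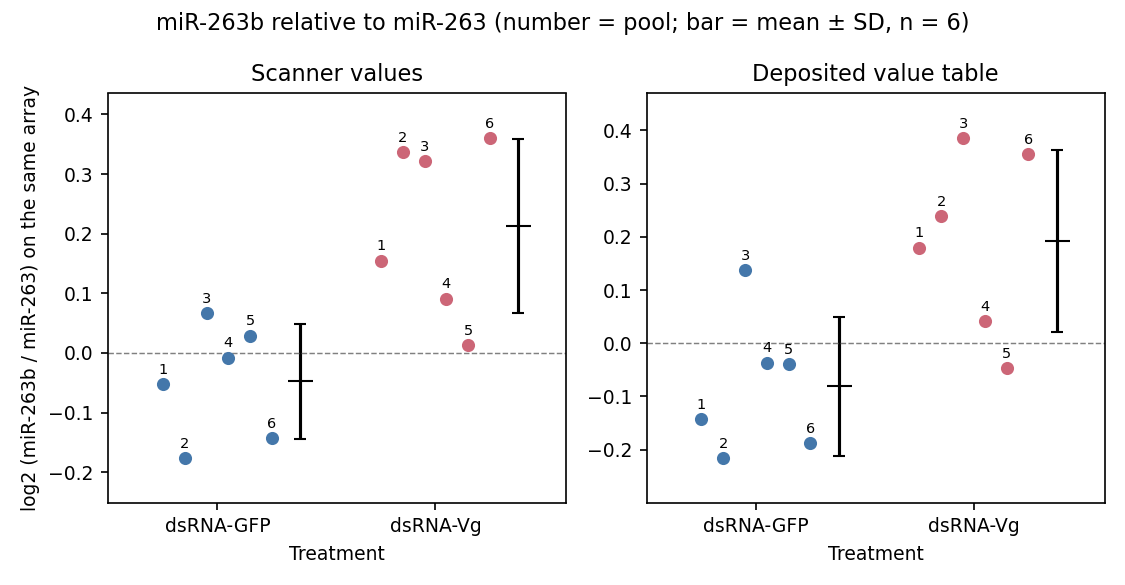
Log2 ratio of miR-263b to miR-263 on the same array, by treatment, from the scanner values (left) and the deposited table (right). Each numbered point is 1 pool and the bars are means ± SD (n = 6); in the left panel 5 of 6 dsRNA-Vg pools lie above every control pool.

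Over the 12 pools miR-263 and miR-263b rose and fell together. Pearson's r was 0.854 (permutation p 3.6e-04, adjusted 0.00108 over 3 pairs) and Spearman's rho 0.783 (permutation p 0.00396). Without control pools 2 and 3, the farthest from the median of miR-263, r was 0.755 (permutation p 0.0116, adjusted 0.0348). Within the 6 dsRNA-GFP pools r was 0.901 (exact permutation p 0.00694, adjusted 0.0208), and within the 6 dsRNA-Vg pools, which spread less, it was 0.622 (exact permutation p 0.186). After centring each group on its mean, r was 0.859. Over all 8001 pairs of tested reporters 99.5% had a lower r than this pair, and the middle 95% of pairs ran from -0.69 to 0.71. Many tested reporters were dim. Over the 595 pairs of the 35 reporters detected on every array, 98.7% had a lower r, and the middle 95% ran from -0.76 to 0.82. Before normalization between arrays r was 0.901, but the median of the 8001 pairs then stood at 0.715 and 66.5% of them were lower.

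The reporters are neighbours on the array as well as in sequence. All 18 spots of miR-263 have a spot of miR-263b in the next row of the same column. The spots were split into an upper and a lower part of the array after the layout had been seen. Spots of one miRNA in the upper part against spots of the other in the lower part gave r values of 0.801 and 0.828, beside 0.854 over all spots. Both parts share the array and its normalization. The parts of neighbouring spots and of the 19 shared bases in the correlation were not tested. In the deposited table r was 0.736 (permutation p 0.0133, adjusted 0.04), and rho was 0.462 (permutation p 0.134).

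No correlation of miR-31a with the pair passed the test. Its r with miR-263 was -0.31 (permutation p 0.327) and with miR-263b 0.06 (permutation p 0.859). The rank correlations were -0.24 and 0.17. In the deposited table the rank correlation of miR-31a with miR-263 was -0.609 (permutation p 0.0396, adjusted 0.119 over 3 pairs), which did not pass, and Pearson's r was -0.337. Control pool 3, where miR-31a was highest, had one of the lower levels of miR-263, and control pool 6, where miR-31a was lowest, one of the higher. Before normalization miR-31a had an r of 0.723 (permutation p 0.00846, adjusted 0.0761 over 9 relations) and a rho of 0.804 (permutation p 0.00236) against the median empty spot. The r was 0.661 without the 2 farthest arrays, 0.468 within the dsRNA-GFP arrays and 0.941 within the dsRNA-Vg arrays.

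**Figure D4:**
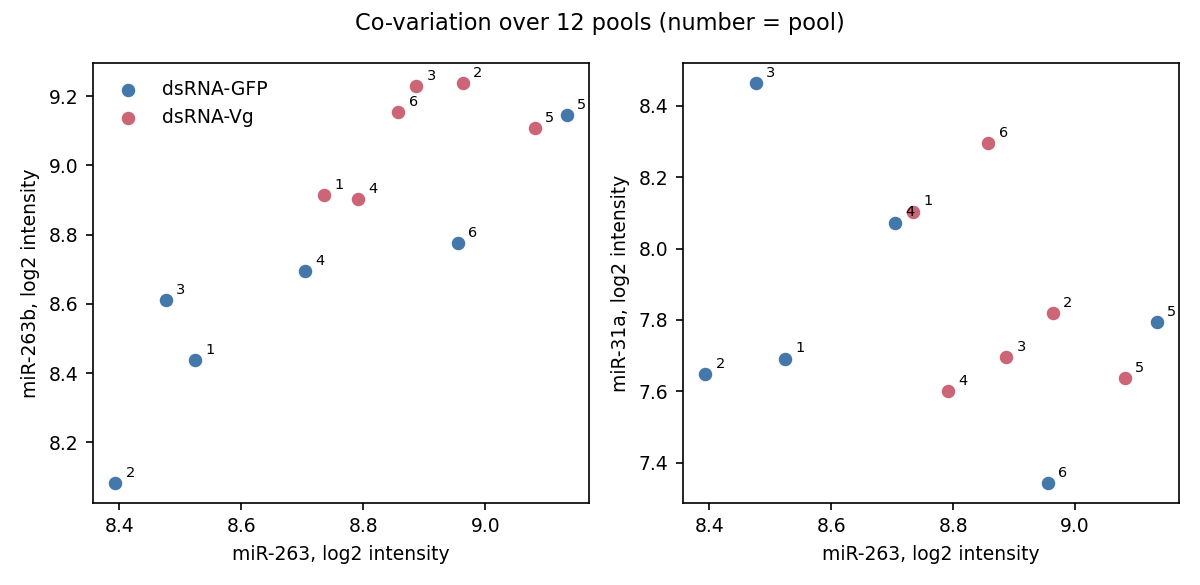
Normalized log2 intensity of miR-263b (left) and miR-31a (right) against that of miR-263, 1 numbered point per pool, coloured by treatment. The points of miR-263b rise with miR-263 (r 0.854), and those of miR-31a show no such rise (r -0.31).

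Control pools varied more than dsRNA-Vg pools in both similar miRNAs. The SD of the controls was 2.36 times that of the dsRNA-Vg pools for miR-263, 2.37 times for miR-263b and 1.38 times for miR-31a. Of the 35 reporters detected on every array 26 had the larger SD in the controls, with median SDs of 0.296 and 0.270. The ratio of SDs was not tested. The standard error over the 18 spots of a reporter was smaller than this spread, with medians of 0.054 in the controls and 0.037 after dsRNA-Vg for miR-263.

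The reporters most like each miRNA over the 12 pools, after centring on the group means, were named by a fixed number of 3 each and carry no p. The 3 miRNAs themselves were left out of this ranking, in which miR-263 and miR-263b would otherwise stand first for each other (r 0.859). For miR-263 they were let-7 (r 0.71), miR-3719 (0.61) and miR-100 (0.56), where let-7 and miR-100 are developmental timing miRNAs. For miR-263b they were miR-184 (0.58), miR-3719 (0.57) and miR-252 (0.56). For miR-31a the r values were higher, at 0.85 with miR-34, 0.82 with miR-318 and 0.79 with miR-275. Of these, miR-318 was dim, with group means of 7.01 and 7.07, and was detected on 8 of 12 arrays. In the deposited table miR-34, miR-318 and miR-275 kept r values of 0.646, 0.583 and 0.802 with miR-31a. For miR-263 the r values there were lower, at 0.384 with let-7, 0.168 with miR-3719 and -0.168 with miR-100. For miR-263b they were 0.315 with miR-184, 0.122 with miR-3719 and 0.614 with miR-252. The points share arrays and their normalization.

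Other miRNAs known from fly epithelium and sensory organs had log2 fold changes from -0.21 to 0.10. Of 9 tested members 0 were called, as a background of 1.57% over all reporters would also give. Of their log2 fold changes 2 lay above 0, against 60 of 127 for all tested reporters, and the median was -0.03 against -0.01 for all reporters. The miRNA miR-8, a regulator of epithelial and fat body growth in flies, was at -0.01 (SE 0.14). Its estimate mirrored that of miR-276, at 0.01, and each had SDs of 0.26 in the controls and 0.25 after dsRNA-Vg. Quantile normalization fixes the values of the brightest places, which miR-8 and miR-276 traded between them. The estimate of -0.01 therefore does not show whether miR-8 changed. Of the sensory organ miRNAs, miR-9a, which limits sensory precursor number, was at -0.06 (SE 0.13). For miR-7, which promotes photoreceptor fate, the log2 fold change was -0.10 (SE 0.06). Both were dim, each detected on only 9 arrays, so these small values say little about change. The value of miR-279, which represses the formation of carbon dioxide sensing neurons, was 0.10 (SE 0.26). The value of miR-184 was -0.21 (SE 0.17). Only 5 of the 9 tested members were detected on every array. The others missed the detection rule on some arrays, and the median and the count of signs rest partly on them.

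The miRNAs that restrain cell death genes in flies had log2 fold changes on both sides of 0, with 4 positive, 2 negative and a median of 0.02. Of the positive values, that of miR-2 (0.02) was fixed by its rank in quantile normalization, with an SD of 0 after dsRNA-Vg. It does not show whether miR-2 changed, and the median rests partly on it. Of the 6 tested 0 were called, against the same background of 1.57%. The value of bantam, which like miR-263b represses hid in flies, was 0.03 (SE 0.28). Within the family that acts on reaper-type death genes, miR-13b was at 0.33 (SE 0.10, adjusted p 0.145 in limma) and miR-11 at 0.16 (SE 0.20). The value of miR-13a was -0.20 (SE 0.06, adjusted p 0.155 in limma), and that of miR-14, which suppresses cell death in flies, -0.31 (SE 0.12, adjusted p 0.218 in limma). The estimates for miR-13b and miR-13a thus had opposite signs, but their signals were unlike. While miR-13b was detected on 12 of 12 arrays, miR-13a was detected on 6, of which 4 were dsRNA-GFP and 2 dsRNA-Vg. For miR-14 the number was 7. The values of miR-13a and miR-14 thus lay near the detection limit.

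**Figure D5:**
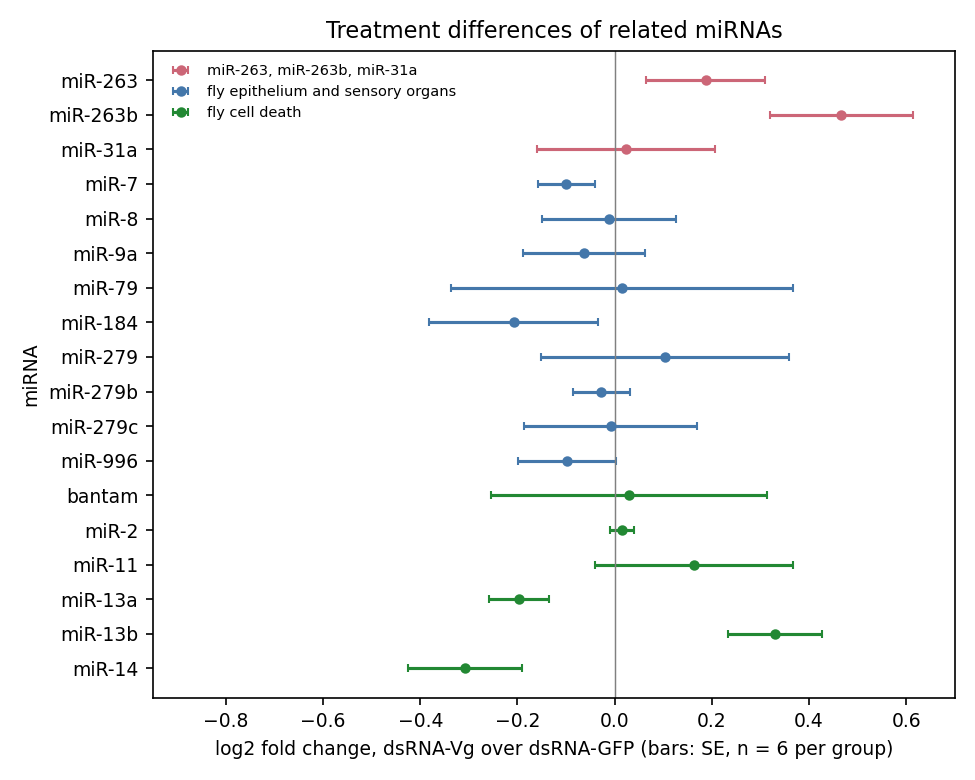
Log2 fold change, dsRNA-Vg over dsRNA-GFP, of the 3 miRNAs and of the tested members of the lists of fly epithelium and sensory organs and of fly cell death, with bars of 1 SE (n = 6 per group). No value drawn passed the adjusted threshold, and miR-263b has the highest estimate.

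Of the tested markers of other tissues 0 were called, against 1.57% of all reporters. Of the muscle miRNAs, miR-133 was at 0.44 and miR-1 at -0.44, and neither passed the test. After centring on the group means, miR-31a had an r of -0.81 with miR-1 and 0.27 with miR-133, a description over 12 pools. Control pool 3, where miR-31a was highest, was also the lowest in miR-1, at 9.62 against 11.15 in the next control pool, and without it these r values were -0.64 and 0.39. All 3 midgut miRNAs tested had negative values, with a median of -1.17 and wide errors. They were -0.46 (SE 0.20) for miR-281, -1.17 (SE 0.67) for miR-1175 and -1.89 (SE 0.99) for miR-750. For miR-1175 and miR-750, dsRNA-Vg pool 3 stood far above the other dsRNA-Vg pools. The centred r of the midgut miRNAs with the 3 miRNAs described here lay between -0.26 and 0.36. Of 6 nervous system miRNAs 3 were tested, and 3 did not reach the detection rule. The tested values ran from -0.12 for miR-190 to 0.13 for miR-210, with a median of 0.05. The ovary miRNAs miR-989 and miR-318 had a median of 0.07. In both lists 0 members were detected on every array, so these small values say little about change. Fewer cells of a type and less miRNA per cell cannot be told apart in pooled tissue.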

How the data were processed

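The 12 single-colour (Cy3) arrays were run by a service provider, LC Sciences, per the labels' protocols, 1 per pool. The deposited scanner files give an intensity for each of 3968 spots per array, with no local background column. The deposited value table gives 1 intensity per reporter and array, and neither labels nor headers state whether or how it was normalized. Per array it correlated with the scanner intensities at a Spearman's rho of 0.899 to 0.984.

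Scanner intensities were background-corrected over all spots with normexp (offset 50) in limma 3.58.1 (R 4.3.3). The 3024 miRNA spots were log2-transformed and quantile-normalized, and the 18 spots of a reporter averaged. The 628 empty spots set the detection limit. Reporters detected on at least 6 of 12 arrays (127 of 168) were tested with lmFit and eBayes, group as the only term, and Benjamini-Hochberg adjustment at 0.05. The deposited table was tested as log2(value + 1). Ratios and correlations were computed in Python 3.11.15 (scipy 1.17.1), with exact tests for ratios and 100000 permutations over 12 pools. The limma step was tested on simulated data. Of all pairs of arrays, 0 held identical values.

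The members, lists and tests were chosen with earlier results of these data known. The text names the 3 miRNAs, the 3 reporters most like each, and the members of the lists of fly epithelium, fly cell death and other tissues. Alternatives covered background correction, normalization, spot summary, detection, the deposited table, single pools left out and pool numbers as a block. Pools are of separate bees, and p-values measure the spread between pools. Sequences and the RefSeq annotation were used without coordinates, since the files name no genome build.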

Additional observations from a re-analysis of the deposited data

Results flagged for a closer look

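None of the 3 miRNAs had a pool far from the rest of its group. Among the 74 groups of 6 values checked, 9 had a pool that stood apart by Dixon's test, where chance gives about 3.7. In the dsRNA-GFP pools, miR-7 stood apart in pool 2 at a log2 intensity of 7.36, miR-279b in pool 1 at 7.33, miR-2 in pool 1 at 13.69 and miR-1 in pool 3 at 9.62. For miR-2 all other control pools held the same value, 13.78, which quantile normalization gives to a fixed rank. Any pool of another rank had to be flagged, so the flag of miR-2 says nothing about that pool. Control pool 3 is also the pool in which miR-31a was highest. In the dsRNA-Vg pools, bantam stood apart in pool 3 at 11.22, miR-1175 in pool 3 at 10.25 and miR-750 in pool 3 at 11.61. In dsRNA-Vg pool 1, miR-124 stood apart at 7.52 and miR-210 at 7.83. Outside the miRNA reporters, the control reporter PUC2PM differed between groups by 1.41 on the log2 scale before normalization.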

How the results depend on the processing

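The log2 fold change of miR-263b stayed positive in all 29 alternatives run, and it passed the test in 1 of them, without dsRNA-GFP pool 5, at 0.57; over single pools left out it ran from 0.36 to 0.57. For miR-263 it turned to -0.0071 with cyclic loess, -0.030 in the deposited table and -0.082 within the arrays whose dim reporters lay below the empty-spot limit, and ran from 0.13 to 0.28 over single pools left out. For miR-31a it turned to -0.10 with cyclic loess, -0.043 with scaling to the median, -0.29 with no normalization, -0.089 in the deposited table, -0.049 with array class as a block and -0.12 within the other array class, and ran from -0.075 to 0.15 over single pools left out. The causes of these turns were not tested.

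The number of reporters called in limma, 2 in the reported setting, was 1 with scaling to the median, 1 with no normalization and 1 among reporters detected on every array. It was 0 within each array class (5 and 13 at an unadjusted p under 0.05) and 0 with PUC2PM as a covariate (15 unadjusted), and ran from 2 to 3 over single pools left out. The deposited table called 2.

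The correlation of miR-263 and miR-263b did not pass within the dsRNA-Vg pools (0.622) or as a rank correlation in the deposited table (0.462), and ran from 0.794 to 0.894 over single pools left out. That of miR-263 and miR-31a turned to 0.164 with scaling to the median and 0.197 with no normalization, and ran from -0.498 to -0.078. That of miR-263b and miR-31a turned to -0.016 in the deposited table, -0.013 between upper and lower spots and -0.266 without the 2 farthest pools, and ran from -0.106 to 0.243. The ratio of miR-263b to miR-263 did not pass within the array classes (0.24 and 0.23), and ran from 0.23 to 0.30 over single pools left out. The ratio of miR-31a to miR-263 turned to 0.088 in the second class and ran from -0.44 to -0.14, and that of miR-263b to miR-31a from 0.43 to 0.71.

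No label pairs the pools by number, and whether same-numbered pools belong together could not be told from the values. Same-numbered pools correlated between -0.33 and 0.70 in their deviations from the group means. For pool 3 the r was 0.70, against a median of -0.37 with the other numbers, and for pool 1 it was -0.33 against -0.13. With the number as a replicate block the log2 fold changes were 0.19, 0.47 and 0.02 for miR-263, miR-263b and miR-31a, with adjusted p-values in limma of 0.381 for miR-263 and 0.165 for miR-263b, and 3 reporters were called. A block by slide or scan date was not run, as the headers used here name none. Low signal over the empty spots limits miR-31a most.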
